A study of Mus musculus with 4 samples.

Results

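The Gimap genes (GTPase of the immunity-associated protein family) encode a family of GTP-binding proteins of lymphocytes, and Gimap1, Gimap3, Gimap4, Gimap5, Gimap6, Gimap7, Gimap8 and Gimap9 were followed here in CD4+ thymocytes with and without the microRNA miR-142. They were taken by symbol, each through the probe set that named this gene alone and had the highest mean over the 4 arrays. These 8 genes are all the numbered Gimap genes of the mouse RefSeq table used here, and they stand among 19938 genes measured on the arrays. All 8 had a single probe set, and all 8 lay among the 12591 genes above background.

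Expression was measured with Affymetrix Mouse Gene ST arrays, 1 array for each of 4 sorted populations. The miR-142-/- Qa2+ and miR-142-/- Qa2- populations came from a pool of 4 mice that lacked miR-142, labelled as 1 female and 3 males. The WT Qa2+ and WT Qa2- populations came from a pool of 5 miR-142+/+ mice, labelled as 3 females and 2 males. All mice were 8-week-old C57BL/6n, and thymus cells were depleted of CD8+ cells before sorting. Qa2+ cells were sorted as CD4+CD8-CD69-Qa2+, the more mature single-positive thymocytes, and Qa2- cells as CD4+CD8-CD69+Qa2-, the less mature ones. A label is contradictory: the array titled miR-142-/- Qa2-, with a matching sorting entry, is described elsewhere in its record as Qa2+, and its title was followed. The comparisons set miR-142-/- beside WT within a stage, and Qa2+ beside Qa2- within a genotype.

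GIMAP proteins share a GTP-binding domain related to that of septins, and several are anchored to intracellular membranes. They are best known for keeping lymphocytes alive: loss of Gimap5 in rats and mice leaves few peripheral T cells, and loss of Gimap1 in mice depletes mature T and B cells. In the thymus these genes are regulated as cells pass from the double-positive to the single-positive stage. The 8 genes form a cluster on mouse chromosome 6, in the order Gimap8, Gimap9, Gimap4, Gimap6, Gimap7, Gimap1, Gimap5 and Gimap3, and Tmem176b and Tmem176a are the nearest protein-coding genes beyond Gimap3.

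MicroRNAs pair with target RNAs mainly through the seed, bases 2 to 8, given in capitals below. The mature miR-142 sequences (RefSeq, GRCm38.p6, chromosome 11, plus strand) are shown because their loss defines the miR-142-/- groups. The 3′ ends of the Gimap transcripts were not analysed here.
mmu-miR-142a-3p: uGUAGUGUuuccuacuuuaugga
mmu-miR-142a-5p: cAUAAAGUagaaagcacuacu

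The labels were checked first. Signal for Mir142 was log2 4.88 and 5.29 in miR-142-/- Qa2+ and Qa2- cells, under the background threshold of log2 5.87, and 9.41 and 10.11 in WT Qa2+ and Qa2- cells. The Qa2+ minus Qa2- difference of Cd69 was -0.96 in miR-142-/- and -0.77 in WT. Cd4 lay between 12.36 and 12.64 on all arrays. Xist, which silences the X chromosome in female cells, gave log2 4.83 and 5.06 on the Qa2+ and Qa2- arrays of miR-142-/- and 12.14 and 12.67 on those of WT, although each pool was labelled as holding both sexes. Uty, Kdm5d and Eif2s3y, which are Y-linked, read between 9.72 and 10.58 on the miR-142-/- arrays and between 4.29 and 5.09, under background, on the WT arrays. Correlations between arrays over all probe sets were 0.982 to 0.991. With 1 array in each group, a genotype difference has no replicate check and no p-value. Genotype differences also compare 2 pools that differ in sex-linked transcripts on every array. An effect of miR-142 loss therefore cannot be told apart from one of sex or of pool. Cell numbers cannot be told apart from RNA per cell.

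On the miR-142-/- arrays 7 of the 8 Gimap genes were within 1.5-fold of WT at both stages. The exception was Gimap7, whose human counterpart dimerises through its GTPase domain and speeds GTP hydrolysis. Gimap7 read log2 7.42 in miR-142-/- Qa2+ cells and 9.08 in WT Qa2+ cells. In Qa2- cells it read 7.57 in miR-142-/- and 8.53 in WT. Both miR-142-/- arrays were lower than both WT arrays, and all 4 values were above background. The difference (miR-142-/- minus WT) was -1.66 in Qa2+ cells, which is 3.17-fold lower, and -0.96 in Qa2- cells, which is 1.95-fold lower. Thus 1 of 8 members passed the 1.5-fold mark downwards in each population, whereas the share of all genes above background past this fold was 4.88% in Qa2+ cells and 3.74% in Qa2- cells. Of all genes above background, 0.58% had a lower difference than Gimap7 in Qa2+ cells and 1.43% in Qa2- cells. No member was at least 1.5-fold higher in miR-142-/-, against 4.56% of all genes in Qa2+ and 3.11% in Qa2- cells.

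**Figure D1:**
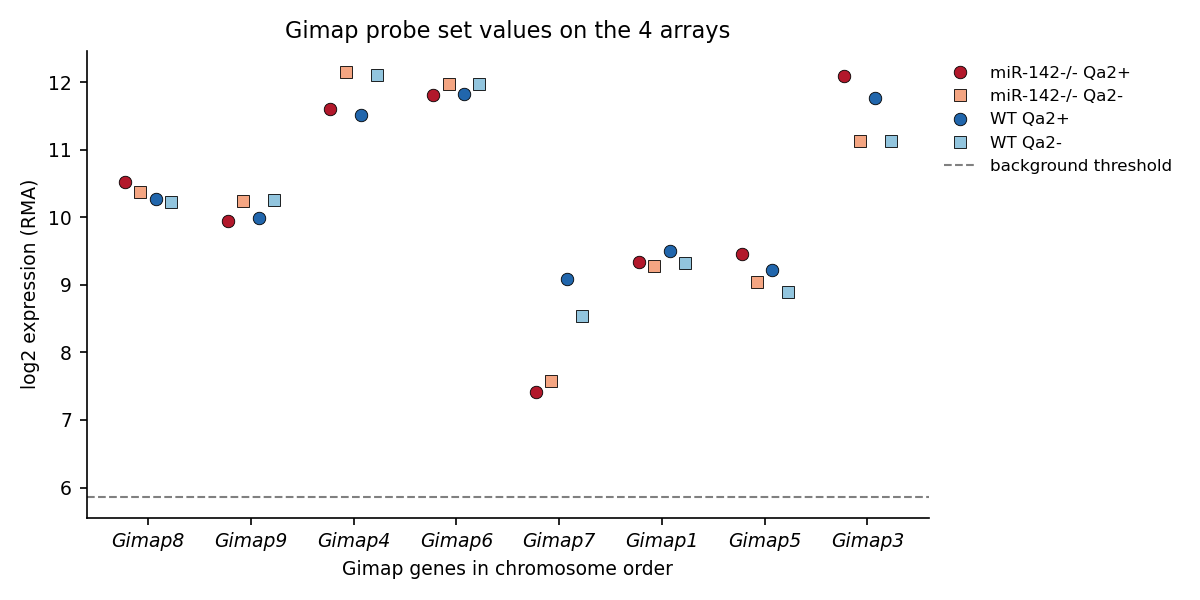
Log2 RMA expression (vertical axis) of the 8 Gimap probe sets (horizontal axis, in chromosome order) on the miR-142-/- Qa2+, miR-142-/- Qa2-, WT Qa2+ and WT Qa2- arrays, 1 point per array, with the background threshold of 5.87 as a dashed line. Gimap7 is the gene whose 2 miR-142-/- points (7.42 and 7.57) lie well under its 2 WT points (9.08 and 8.53), while Gimap3 and Gimap4 separate by stage. Levels of different probe sets are not comparable with each other.

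The other 7 members stayed close to WT. Their genotype differences ran from -0.17 (Gimap1) to 0.33 (Gimap3) in Qa2+ cells and from -0.04 (Gimap1) to 0.15 (Gimap8) in Qa2- cells, with the sign of the smallest ones depending on the scaling of the arrays. For scale, 1194 olfactory and vomeronasal receptor genes, which thymocytes are not known to use, had a standard deviation of 0.18 in Qa2+ and 0.15 in Qa2- cells for the same differences. Most of these receptor genes lay under the background threshold, so their spread need not match that of expressed genes. The median of the 8 members was 0.040 in Qa2+ and -0.0014 in Qa2- cells, beside 0.0013 and -0.0011 over all genes above background. Gimap6, whose protein binds an ATG8-family protein of autophagy, read 11.81 and 11.96 in miR-142-/- Qa2+ and Qa2- cells, and 11.82 and 11.97 in WT Qa2+ and Qa2- cells. Its values overlapped almost completely between the genotypes, and Gimap6 is the direct chromosome neighbour of Gimap7.

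Gimap1, the neighbour on the other side and a gene required for mature lymphocytes in mice, read 9.34 and 9.28 in miR-142-/- Qa2+ and Qa2- cells and 9.50 and 9.32 in WT Qa2+ and Qa2- cells. Gimap8, a long family member with several GTPase domains, read 10.52 and 10.37 in miR-142-/- Qa2+ and Qa2- cells and 10.27 and 10.22 in WT Qa2+ and Qa2- cells. All values of these 2 genes lay within 0.30 of the other values of the same gene. Gimap9 read 9.95 and 10.24 in miR-142-/- Qa2+ and Qa2- cells and 9.99 and 10.26 in WT Qa2+ and Qa2- cells, so the genotypes differed by 0.04 or less.

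**Figure D2:**
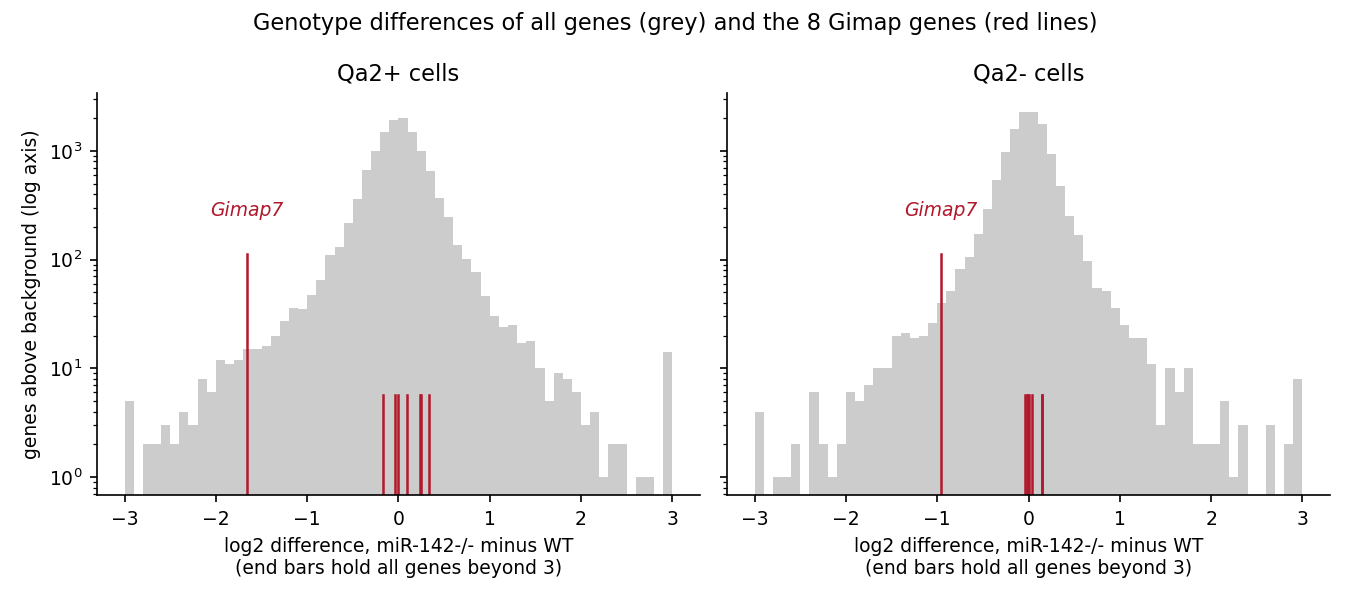
Number of genes above background (vertical log axis) by log2 difference, miR-142-/- minus WT (horizontal axis), in Qa2+ cells (left) and Qa2- cells (right), with red lines at the 8 Gimap genes. Gimap7 lies at -1.66 and -0.96, in the lower tail of all 12591 genes, and the other 7 members lie between -0.17 and 0.33.

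The genotype difference of Gimap7 was bordered by genes that differed otherwise. Of 12 other genes that the RefSeq order places within the cluster or up to 5 genes beyond its ends, 6 were measured and 4 lay above background. Tmem176b, which encodes a multi-pass membrane protein, read 11.01 and 11.18 in miR-142-/- Qa2+ and Qa2- cells and 7.85 and 8.28 in WT Qa2+ and Qa2- cells. Its partner Tmem176a read 9.45 and 9.67 in miR-142-/- Qa2+ and Qa2- cells and 6.42 and 6.63 in WT Qa2+ and Qa2- cells. Both were far higher on each miR-142-/- array than on any WT array, by 3.15 and 3.02 in Qa2+ cells and by 2.90 and 3.04 in Qa2- cells. Gimap3, the member nearest to them, differed by 0.33 in Qa2+ and by 0.00079 in Qa2- cells.

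On the other flank, the zinc finger gene Zfp775 differed by -0.04 and -0.06. Repin1, a zinc finger gene beyond it, differed by 0.49 in Qa2+ and by -0.41 in Qa2- cells. The pseudogene AI854703 and Gm5111 lay below background.

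**Figure D3:**
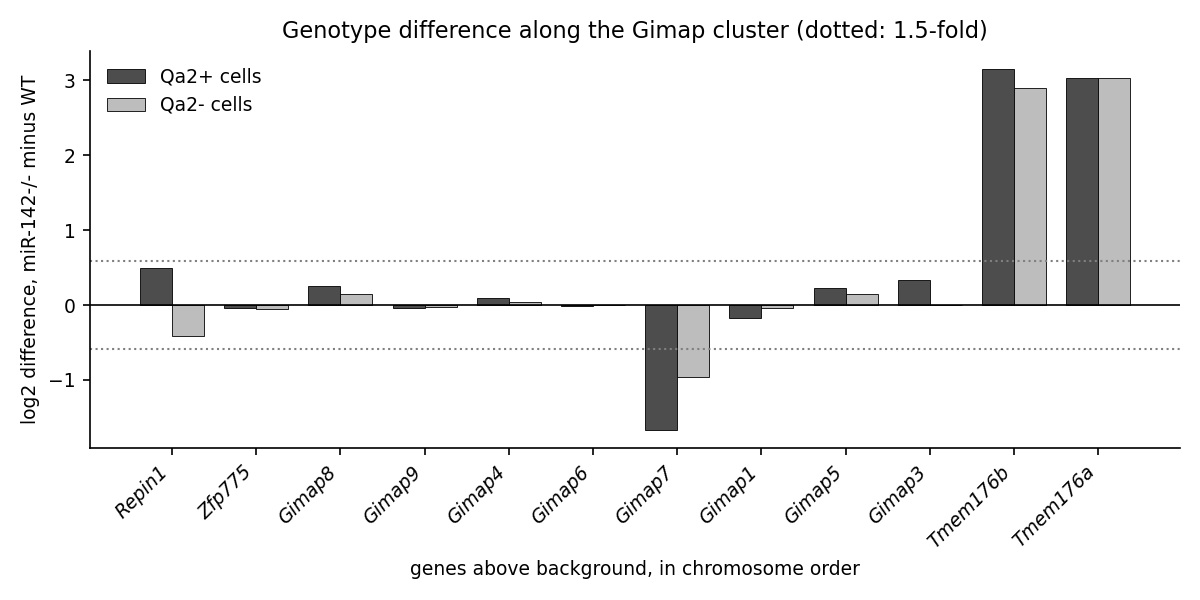
Log2 difference, miR-142-/- minus WT (vertical axis), for the 8 Gimap genes and their 4 neighbours above background in chromosome order (horizontal axis), as dark bars for Qa2+ and light bars for Qa2- cells, with dotted lines at 1.5-fold. Gimap7 is the bar pair below the lower line, at -1.66 and -0.96, and Tmem176b and Tmem176a stand at 2.90 to 3.15.

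Between the stages, Gimap3 and Gimap5 rose and Gimap4 fell in Qa2+ cells. Averaged over the genotypes, with genotype as a block (2 pairs of arrays), 2 of 8 members rose and 1 fell with limma at a Benjamini-Hochberg adjusted p under 0.05, against 4.77% of all genes tested that rose and 8.35% that fell. The standard errors rest mostly on the spread pooled over genes, and the pairs are pools of mice, so the p-values do not measure the spread between mice. Without the genotype block no gene passed, and the 3 members had adjusted p of 0.321 (Gimap3), 0.321 (Gimap4) and 0.40 (Gimap5).

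Gimap3, an atypical family member of mice that acts with Gimap5 in T cell survival, read 12.09 in Qa2+ and 11.13 in Qa2- cells of miR-142-/-. In WT it read 11.76 in Qa2+ and 11.13 in Qa2- cells. Both Qa2+ arrays were above both Qa2- arrays, and the averaged difference was 0.80 ± 0.11 (limma log2 difference ± SE, adjusted p = 0.0051). Within the genotypes Gimap3 was 1.95-fold higher in miR-142-/- and 1.55-fold higher in WT, and as deposited it was the 1 member at least 1.5-fold higher in each, against 2.65% of all genes in miR-142-/- and 2.69% in WT. After quantile normalization and median centring Gimap7 also passed that mark in WT, at 0.62 and 0.60.

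Gimap5, the member whose loss causes lymphopenia, read 9.46 in Qa2+ and 9.04 in Qa2- cells of miR-142-/-. In WT it read 9.23 in Qa2+ and 8.89 in Qa2- cells. It rose by 0.38 ± 0.10 (limma log2 difference ± SE, adjusted p = 0.044), and the Qa2+ and Qa2- values did not overlap. Gimap3 and Gimap5 are close paralogs, and whether their probes cross-hybridise was not tested.

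Gimap4, whose product promotes the late steps of T cell death, read 11.61 in Qa2+ and 12.15 in Qa2- cells of miR-142-/-. In WT it read 11.52 in Qa2+ and 12.11 in Qa2- cells. Both Qa2+ values were lower than both Qa2- values, and Gimap4 fell by 0.57 on the log2 scale (SE 0.099, limma, adjusted p = 0.011). The stage difference was -0.54 in miR-142-/- and -0.59 in WT. In WT this made Gimap4 the 1 member at least 1.5-fold lower, against 3.69% of all genes, and in miR-142-/- no member was, against 3.64%. The WT value missed the 1.5-fold mark at -0.54 after quantile normalization and after median centring, and no member was then that much lower.

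The remaining members did not pass the stage test. Gimap9 differed by -0.28 with a 95% interval from -0.51 to -0.06 (limma, adjusted p = 0.097), and Gimap6 by -0.15 with an interval from -0.38 to 0.08 (adjusted p = 0.34). Gimap1 differed by 0.12, with an interval from -0.11 to 0.35, and Gimap8 by 0.10, with an interval from -0.13 to 0.33. Over all 8 members the median stage difference was -0.050 in miR-142-/- and 0.12 in WT, beside -0.059 and -0.064 over all genes above background.

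**Figure D4:**
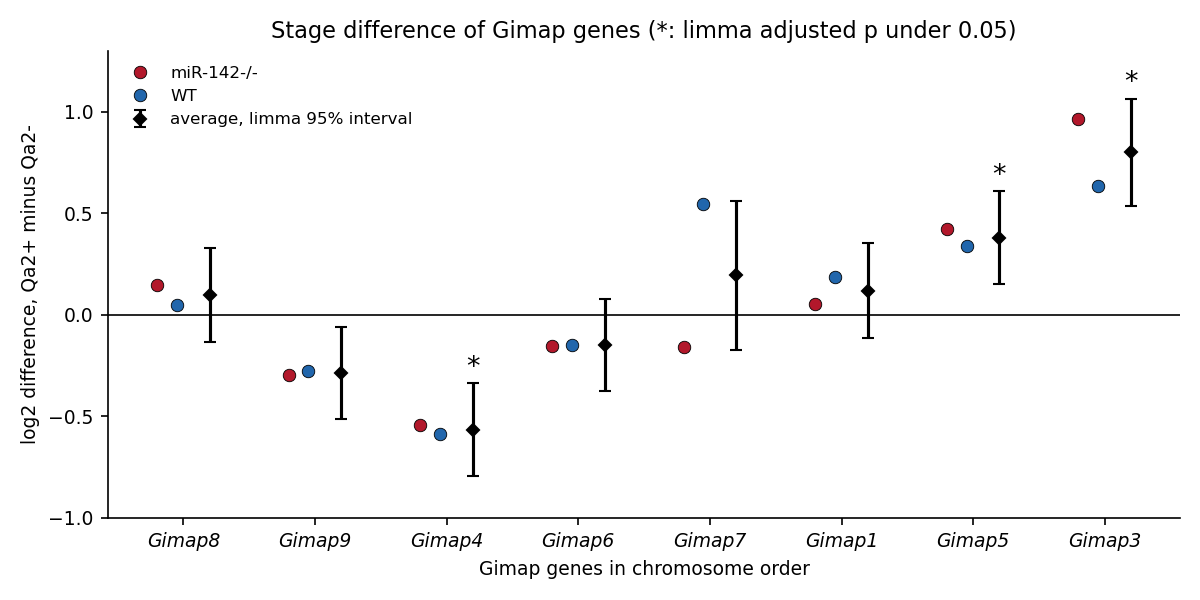
Log2 difference, Qa2+ minus Qa2- (vertical axis), of the 8 Gimap genes in chromosome order (horizontal axis), as 1 red point for miR-142-/-, 1 blue point for WT and a black diamond for the limma average with its 95% interval. Asterisks mark Gimap3, Gimap5 and Gimap4, which passed the adjusted threshold, and the points of the genotypes are farthest apart for Gimap7.

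The stage difference of Gimap7 was -0.16 in miR-142-/- and 0.55 in WT cells. The average was 0.19 with a 95% interval from -0.17 to 0.56 (limma, adjusted p = 0.45). The difference of these stage differences (miR-142-/- minus WT) was -0.70 for Gimap7 and lay between -0.13 and 0.33 for the other 7 members. Gimap7 was the 1 member of 8 at least 1.5-fold apart in this measure, against 3.42% of all genes above background, and no test was possible because no residual degree of freedom is left.

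The bases before the annotated start of the 4 Gimap genes whose values differed by genotype or stage are shown next (RefSeq, GRCm38.p6, 250 bases, 5′ to 3′ on the strand of the gene). Capitals mark matches to the RUNX motif TGTGGT or its reverse complement ACCACA, and to the KLF motif CACCC or GGGTG. Gimap3, together with Gimap6, runs on the minus strand.
Gimap7 promoter (chr6:48718371-48718620, plus strand): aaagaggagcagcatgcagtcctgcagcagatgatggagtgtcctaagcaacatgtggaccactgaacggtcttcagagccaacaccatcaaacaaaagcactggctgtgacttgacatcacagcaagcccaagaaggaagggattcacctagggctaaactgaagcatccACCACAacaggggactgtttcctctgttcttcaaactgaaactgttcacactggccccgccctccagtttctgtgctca
Gimap4 promoter (chr6:48684328-48684577, plus strand): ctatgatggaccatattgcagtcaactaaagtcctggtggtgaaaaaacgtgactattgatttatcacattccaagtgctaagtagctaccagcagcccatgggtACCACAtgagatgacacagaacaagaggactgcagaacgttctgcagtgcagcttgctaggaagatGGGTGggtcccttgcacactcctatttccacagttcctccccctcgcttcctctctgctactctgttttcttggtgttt
Gimap5 promoter (chr6:48745947-48746196, plus strand): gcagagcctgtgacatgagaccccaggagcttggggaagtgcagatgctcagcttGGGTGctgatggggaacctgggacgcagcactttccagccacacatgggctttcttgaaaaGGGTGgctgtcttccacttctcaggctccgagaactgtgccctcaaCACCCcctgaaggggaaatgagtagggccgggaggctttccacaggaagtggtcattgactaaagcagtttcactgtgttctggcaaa
Gimap3 promoter (chr6:48770852-48771101, minus strand): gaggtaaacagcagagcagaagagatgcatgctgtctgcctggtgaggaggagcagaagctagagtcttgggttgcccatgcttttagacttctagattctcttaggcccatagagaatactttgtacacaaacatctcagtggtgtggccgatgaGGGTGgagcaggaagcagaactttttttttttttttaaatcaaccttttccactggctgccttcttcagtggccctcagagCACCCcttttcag

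Motifs were searched on both strands in 9 promoter entries of the 8 genes, of which the 2 of Gimap8 overlap. The RUNX letters occurred in 3 of the 9, those of Gimap7, Gimap4 and Gimap1, and in 14.05% of 32851 promoter windows of the same length. The KLF letters occurred in 6 of the 9 and in 52.01% of all windows. Gimap5 held 3 such KLF matches, Gimap3 held 2, and Gimap7 held none. The ETS motif CCGGAA, the TCF/LEF motif CTTTGA and the Ikaros motif TGGGAA occurred in none of the 9 entries and in 12.03%, 13.83% and 21.59% of all windows. The motifs do not overlap each other, and a match is a run of letters only.

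Ranked over the 4 arrays by the root mean square difference of log2 values centred on each gene's mean, the genes closest to Gimap7 outside the family were Cdca3 (0.039), H1f5 (0.061), Kif2c (0.065), Plk1 (0.071) and Arhgap19 (0.084). Cdca3 encodes a trigger of entry into mitosis, H1f5 a linker histone, Kif2c a microtubule-depolymerising kinesin, Plk1 a mitotic kinase and Arhgap19 a RhoA regulator of T cell cytokinesis. Cdca3 read 6.71 and 6.77 in miR-142-/- Qa2+ and Qa2- cells and 8.33 and 7.74 in WT Qa2+ and Qa2- cells. Kif2c read 5.76 and 5.74 in miR-142-/- Qa2+ and Qa2- cells, below background, and 7.29 and 6.79 in WT Qa2+ and Qa2- cells. Each of the 5 was lower on both miR-142-/- arrays than on both WT arrays and highest on the WT Qa2+ array, as Gimap7 was. The 5 genes were picked for nearness in these same values, so the shared pattern follows from the ranking. This likeness rests on 4 arrays and is a description.

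**Figure D5:**
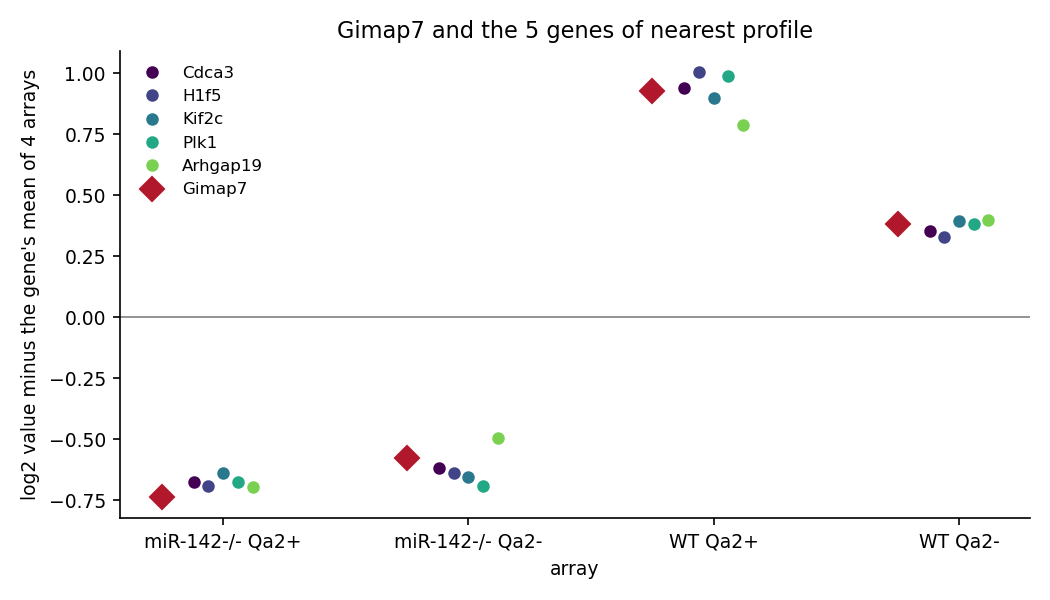
Log2 value minus the gene's mean of the 4 arrays (vertical axis) on each array (horizontal axis) for Gimap7 (red diamonds) and Cdca3, H1f5, Kif2c, Plk1 and Arhgap19 (circles), the 5 genes of nearest profile by a root mean square difference of 0.039 to 0.084. All 6 genes lie under their mean on both miR-142-/- arrays and above it on both WT arrays, a pattern that the ranking selects for.

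Markers of other T cell populations moved with genotype. Of 7 innate-like and NK T cell markers above background, 5 had a value at least 1.5-fold under WT in the Qa2+ population and 7 did in the Qa2- population. Their summed level was log2 10.45 and 10.22 in miR-142-/- Qa2+ and Qa2- cells and 11.58 and 12.04 in WT Qa2+ and Qa2- cells, with the defining marker Klrb1c below background. Nkg7, a granule protein gene, differed by -0.45 in Qa2+ and by -3.47 in Qa2- cells. Zbtb16, the defining transcription factor of innate-like T cells, differed by -1.73 in Qa2+ and by -0.68 in Qa2- cells, and the interleukin receptor chain gene Il2rb by -1.37 and -1.04. Zbtb16 and Il2rb were picked from the list after their values were seen. Of 7 regulatory T cell markers, 3 were lower and 1 higher in Qa2+ cells, and 2 were lower and 1 higher in Qa2- cells. Among them Foxp3 differed by -1.66 and -1.19, while Gpr83 went the other way, at 1.27 and 1.03. Ctla4 differed most, by -2.65 and -2.61. The summed level of the 7 markers was 13.18 and 13.44 in miR-142-/- Qa2+ and Qa2- cells and 13.30 and 13.19 in WT Qa2+ and Qa2- cells. Such sums, here and for the other lists, are weighted towards the probe sets that read highest. Foxp3 and Ctla4 therefore count for little in this one, and it does not measure the share of regulatory T cells. Their part in the Gimap7 difference was not tested.

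Among the other marker lists, 0 of 6 CD4 T cell genes were 1.5-fold apart between genotypes at either stage. Of 5 CD8 T cell genes, 2 were lower in each population and 1 was higher in Qa2- cells. Of 4 myeloid and dendritic genes above background, 2 were lower in Qa2+ and 1 in Qa2- cells, with Itgax, Csf1r and Flt3 below background. The only B cell marker above background was Cd79b, at -0.45 and -0.48, and Alas2, the erythroid marker measured, was below background. Of 3 thymic stroma genes above background, 1 was higher in Qa2+ and 1 was lower in Qa2- cells. Of 7 double-positive thymocyte genes above background, 5 rose and 0 fell in Qa2+ cells with limma, including the recombinase gene Rag1 at 2.31 ± 0.17 (limma log2 difference ± SE, adjusted p = 0.00047). Their summed level was log2 11.33 in Qa2+ and 10.70 in Qa2- cells of miR-142-/-, and 11.41 in Qa2+ and 10.78 in Qa2- cells of WT, with Rag2 below background. Cd8a and Cd8b1 of the same list did not rise, at -0.07 and -0.24 (limma log2 difference). Whether double-positive cells were present, and their part in the stage differences of Gimap3, Gimap5 and Gimap4, was not tested.

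Genes tied to GIMAP function were compared next. A list of 11 measured partners and effectors held Bcl-2 family, autophagy and GSK3 pathway genes. In miR-142-/- 1 was higher and 1 lower in Qa2+ cells, and 1 higher and 0 lower in Qa2- cells, with medians of -0.057 and 0.011. Ctnnb1, which encodes beta-catenin, was 0.89 higher in Qa2+ and 0.63 higher in Qa2- cells. Bcl2l1, which encodes the survival protein Bcl-xL, differed by -0.61 in Qa2+ and by -0.36 in Qa2- cells.

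Between the stages 0 of the 11 rose and 2 fell with limma, with a list median of -0.20 beside -0.062 over all genes tested. Bcl2l1 fell by 1.01 on the log2 scale (SE 0.11, limma, adjusted p = 0.0019), and Bcl2l11, which encodes the pro-death protein Bim, fell by 0.57 (SE 0.15, limma, adjusted p = 0.047). The stage difference of Bcl2l11 was -0.24 in miR-142-/- and -0.89 in WT. In Qa2+ cells, Bcl2l1 and Bcl2l11 were lower together with Gimap4, while Gimap3 and Gimap5 were higher.

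Of 18 measured genes of interleukin-7 signalling and naive T cell survival, 2 were higher and 2 lower in miR-142-/- Qa2+ cells, and 2 higher and 1 lower in Qa2- cells, with medians of -0.075 and 0.019. The pro-death genes Bmf (1.76 and 0.84) and Bbc3 (1.04 and 0.67) were the higher ones, and the survival kinase gene Pim1 differed by -0.91 and -0.86. Between the stages 3 rose and 2 fell, with a median of -0.061. Pim1 rose by 0.79 ± 0.099 (limma log2 difference ± SE, adjusted p = 0.0031).

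The maturation lists give the scale of the stage step. They were chosen with earlier results of these data known, so they are no independent measure of it. Of 11 genes known to rise in maturing CD4 thymocytes, 8 rose and 1 fell, with a median of 0.92, and Klf2, a transcription factor of quiescence and egress, rose by 1.14 ± 0.12 (limma log2 difference ± SE, adjusted p = 0.0018). Of 12 genes known to fall, 10 fell and 2 rose, with a median of -1.02, and the 2 that rose were Rag1 and Dntt, both genes of antigen receptor rearrangement. The rise of Gimap3 (0.80) was smaller than the first median, and the fall of Gimap4 (-0.57) was smaller in size than the second. Between genotypes, 0 genes of the rising list were higher and 2 lower in miR-142-/- Qa2+ cells, and 0 higher and 4 lower in Qa2- cells. In the falling list 4 were higher and 2 lower in Qa2+ cells, and 1 higher and 0 lower in Qa2- cells.

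Of 19 lymphoid transcription factor genes, 1 was higher and 2 lower in miR-142-/- Qa2+ cells, and 0 were apart in Qa2- cells. Id3, an inhibitor of E proteins, differed by -1.45 in Qa2+ and by -0.08 in Qa2- cells. Between the stages 4 rose and 4 fell, among them Klf3 at 1.10 ± 0.13 (limma log2 difference ± SE, adjusted p = 0.0027) and Gata3, a factor of CD4 T cell development, which fell by 0.87 (SE 0.13, limma, adjusted p = 0.0061).

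Of 16 other immune GTPase and GTPase regulator genes, 1 was higher and 3 lower in miR-142-/- Qa2+ cells, and 2 higher and 1 lower in Qa2- cells. The interferon-induced GTPase genes Iigp1 (0.64 and 0.81) and Gbp3 (0.43 and 0.67) were higher, while Mx1 differed by -0.97 and -0.55 and the G protein regulator gene Rgs1 by -1.04 and -1.41. Between the stages 4 rose and 0 fell, with a median of 0.18, and Rgs1 rose by 0.99 ± 0.12 (limma log2 difference ± SE, adjusted p = 0.0027).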

How the data were processed

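The authors deposited log2 expression values for each probe set. Per the submitters' processing notes, RMA and Partek were used, and the version of each is not given in the sources used here. The RMA procedure corrects background, forces the arrays towards a common distribution and combines the probes of a set, so small signals yield compressed log2 differences and a change common to all genes is removed. Of 35557 probe sets, 21789 named 1 gene, 1621 several and 12147 none in the platform annotation, and 21698 matched a RefSeq gene (GRCm38.p6) by Entrez ID. Genes counted as above background when their mean exceeded log2 5.87, the 95th percentile of 1194 receptor genes.

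Genotype differences are miR-142-/- minus WT and stage differences Qa2+ minus Qa2-, as log2 values. With 1 array in each group, genes at least 1.5-fold apart were counted. The averaged stage difference was tested two-sided with limma 3.58.1 under R 4.3.3. Genotype was the block over 2 pairs, the residual had 1 degree of freedom against 6.94 for the prior, and p-values were adjusted over 12591 genes after Benjamini and Hochberg. In data simulated for this comparison over 12591 genes, limma called all 100 genes changed by 1 and all 100 changed by 2. It also called 41 of 12391 unchanged genes, beside the 200 changed ones. That is a larger share of false calls than the adjusted threshold of 0.05 aims for. Smaller changes, such as those of Gimap3, Gimap4 and Gimap5, were not simulated. Simulated data also do not check limma's assumptions on the real arrays. The number of arrays limits the precision, and array medians were 6.61 to 6.74.

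The members and the lists (GIMAP partners, naive T cell survival, maturation, transcription factors, other GTPases and cell markers) were chosen with earlier results of these data known. The genes to be named were the 8 members, up to 5 neighbours on each side, up to 4 genes of a list with the largest mean absolute differences, and the 5 genes nearest to the widest-ranging member and to the median member profile. Genes named outside this rule include those of the label check, Zbtb16, Il2rb, the proliferation markers, and Cd8a and Cd8b1 in the double-positive list. Some genes that the rule picks, such as Klrd1 and Arpp21, are not described. Alternatives covered scaling, probe set choice, background filter, genotype block and an intensity trend.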

Additional observations from a re-analysis of the deposited data

Results flagged for a closer look

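Gimap7 differed between the stages in opposite directions in the 2 genotypes, by -0.16 in miR-142-/- and by 0.55 in WT cells, a gap of -0.70 on the log2 scale. The direction was opposite on the single pair of arrays of each genotype, and the difference was not tested, since each group holds 1 array. The standard deviation of the same gap over receptor genes was 0.22. For the stage difference in miR-142-/- alone it was 0.21, which is larger than the size of the -0.16 of Gimap7. After quantile normalization that value was -0.09, so a fall of Gimap7 in miR-142-/- cells is not established. Most receptor genes lay under the background threshold, so these spreads need not match those of genes at the level of Gimap7.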

How the results depend on the processing

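In the 4 single comparisons and the stage test, the number of members past the threshold was the same under quantile normalization, median centring, the mean of all probe sets, no background filter and the stricter background threshold of log2 6.75, and under the intensity trend for the stage test. For the difference of stage differences it was the same under quantile normalization and the mean of all probe sets, the alternatives run there. The mean of all probe sets could not change a member value, since each member had a single probe set. The background settings could not either, since every member lay above both thresholds. These settings therefore check the members only in the stage test, where they act through the spread pooled over genes and the adjustment. The count of 2 for stage in WT hides a change of members: under quantile normalization and median centring Gimap4 (-0.54 in both) lost the 1.5-fold mark and Gimap7 (0.62 and 0.60) gained it. The exception in the stage test was leaving out the genotype block, with which 0 members and 0 of 12591 genes passed limma's adjusted threshold, against 3 members and 1651 genes with the block. At an unadjusted p under 0.05, that fit held 4 members and 1544 genes. Over the settings Gimap7 differed by genotype by -1.68 to -1.64 in Qa2+ and by -0.97 to -0.92 in Qa2- cells. Small genotype differences of Gimap1, Gimap6 and Gimap9 in Qa2- cells, and of Gimap6 in Qa2+ cells, changed sign with the scaling. The share of all stage calls that were higher in Qa2+ cells was 36.3% as deposited, 47.7% after median centring and 56.1% after quantile normalization. Among genes at least 1.5-fold apart between stages it was 42.2% as deposited in each genotype, 52.6% in miR-142-/- and 61.3% in WT after quantile normalization, and 53.9% in WT after median centring.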

Other observations

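Proliferation markers were chosen after the genes nearest to Gimap7 had been seen. Mki67 read log2 8.16 and 7.48 in miR-142-/- Qa2+ and Qa2- cells and 10.57 and 9.87 in WT Qa2+ and Qa2- cells. Top2a, the topoisomerase of dividing cells, read 7.66 and 7.68 in miR-142-/- Qa2+ and Qa2- cells and 10.28 and 9.73 in WT Qa2+ and Qa2- cells. Ccna2, a cyclin of dividing cells, read 7.42 and 6.98 in miR-142-/- Qa2+ and Qa2- cells and 10.18 and 9.28 in WT Qa2+ and Qa2- cells. All 3 were lower on both miR-142-/- arrays, and their profiles differed from that of Gimap7 by root mean squares of 0.51 to 0.66. Their part in the Gimap7 difference was not tested.

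The median profile of the 8 members was nearly flat, from -0.05 to 0.02 around the mean of the 4 arrays, and the genes closest to it were Alox8, Apoa4, Arhgdib, Wdr59 and Oxt, by root mean squares of 0.016 to 0.017. Repin1, a neighbour of the cluster, differed between the stages by 0.26 in miR-142-/- and by -0.65 in WT cells.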
